A study of Homo sapiens with 6 samples.

Results

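The genes described here were versican (VCAN) and 5 further proteoglycan genes that monocytes are known to use, serglycin (SRGN), CD44 and the syndecans SDC2, SDC3 and SDC4. They were taken from the deposited tables by gene name, with a value required in at least 4 of the 6 libraries, and the list had been chosen by their measured log2 differences between IL-6 and control libraries, which were known beforehand. Those differences are therefore given as a description, without a test. All 6 genes were found, of 60325 gene rows, and each had a value in all 6 libraries, so no gene lay near the limit of 4.

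The libraries came from THP-1, an established human cell line derived from a monocytic leukaemia, which stands in for blood monocytes. Cells were controls or had received recombinant human interleukin-6 (IL-6, labelled hr IL-6), and RNA was taken at 6, 24 and 48 h, with 1 library for each of the 6 conditions. The IL-6 dose and what the controls received instead were not stated in the labels. The study asked which genes change their expression in this line under IL-6. Nothing in the labels says that the 3 times came from separate cultures, so every p-value below measures only the spread between these libraries, which may be technical.

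Proteoglycans are proteins that carry long sulphated sugar chains, the glycosaminoglycans, attached to serine residues of a core protein. Versican is a large chondroitin sulphate proteoglycan secreted into the matrix, where it binds hyaluronan, and it is a well known transcript of classical monocytes. Serglycin is held inside secretory granules and stores proteases there. CD44 is the main hyaluronan receptor of leukocytes and can carry chains itself, and the syndecans are membrane proteins whose heparan sulphate chains bind growth factors, chemokines and matrix.

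The values are log2 values that the authors centred on each gene, so that the mean of a gene over its libraries is 0 and a gap of 1 between libraries stands for a 2-fold change in level. Sequencing depth is unknown, because the tables hold no counts. A value was listed for between 22000 and 23108 genes in each library. For most genes a level could be recovered from the ratios between libraries, in an arbitrary unit with a step of 0.001, up to a level of 100. All 10 monocyte markers checked had a value in all 6 libraries, and 8 of them, among them CD14, CSF1R and SPI1, had no recovered level, which was taken as a level above the range that could be matched. The other pair, ITGAM and MPEG1, summed to a level of 7.06 to 11.9 in control and 6.47 to 18.0 in IL-6 libraries. The erythroid and platelet markers HBB, PF4 and PPBP had no value in any library, and of 7 fibroblast markers 1 had 6 values, with summed levels of 0.161 to 0.345 in control and 0.213 to 0.646 in IL-6 libraries. CD3E and CD2 of the T and NK cell list had no value. Neither had MS4A1 of the B cell list, nor KRT19 and CDH1 of the epithelial list. NKG7 had a value in all 6 but no recovered level, as for the 8 monocyte markers, and was treated in the same way. Other markers had a value in some libraries, among them COL1A1 in 5, CD3D in 3 and CD3G and EPCAM in 2 each. The B cell markers with 6 values summed to 5.10 to 7.42 in control and 5.36 to 8.15 in IL-6 libraries, and the epithelial ones to 1.91 to 2.26 and 1.01 to 2.64. In bulk RNA, fewer cells of a type and less RNA per cell cannot be told apart.

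For 4 of the 6 genes, VCAN, CD44, SDC3 and SDC4, the reference table of RefSeq promoters (GRCh38.p14) held a window. The 250 bases before the annotated start were searched on both strands, overlapping matches counted, for GGGCGG (the GC box bound by SP-family factors), TTCNNNGAA (the letters of a STAT-type element, STAT3 being the best known factor downstream of IL-6), CCAAT and TATAAA. The GC box was the one motif found in all 4 windows, and the stretches below show its first occurrence in each, written along the gene's own strand with the box in capitals.
VCAN: ggagctgcctttCCGCCCctccgcctgctt
CD44: cagcagagcacgGGGCGGgggcagaggggc
SDC3: ccctctgggtggGGGCGGgggctgggactg
SDC4: cgggctcgggcaGGGCGGgtcccttggggt

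The VCAN stretch lies on the plus strand at chr5:83471562-83471591. Its box begins 170 bases before the RefSeq start and is on the opposite strand. That of CD44 lies on the plus strand at chr11:35138989-35139018, inside the gene as the deposited tables place it (from 35138882). The SDC3 stretch, at chr1:30908894-30908923, and the SDC4 stretch, at chr20:45348570-45348599, lie on the minus strand upstream of the deposited gene starts. The windows held 1 GC box for VCAN, 2 for CD44, 5 for SDC3 and 8 for SDC4. Of all 35116 promoter windows of this length, 42.6% held at least 1. TTCNNNGAA, CCAAT and TATAAA were not among the letters of the 4 windows, and were present in 6.6%, 32.0% and 10.7% of all windows. SRGN and SDC2 had no entry.

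VCAN, on the plus strand of chromosome 5 (83471618 to 83582303, GRCh38), was the gene of the 6 with the largest difference between IL-6 and control libraries. Ordered by time (6, 24, 48 h), its centred log2 values were -0.62, -0.53 and -1.89 in control and 0.93, 1.14 and 0.97 in IL-6 libraries. The 3 IL-6 libraries were alike and all lay above the 3 control libraries, of which that of 48 h was the lowest. In recovered levels this was 5.56, 5.90 and 2.30 in control and 16.3, 18.8 and 16.8 in IL-6 libraries.

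Relative to the control of the same time, VCAN with IL-6 was 2.94-fold after 6 h, 3.19-fold after 24 h and 7.29-fold after 48 h. The mean log2 difference was 2.03 ± 0.73 (SD, 3 time-matched pairs), a 4.09-fold difference. The larger ratio at 48 h went with the control library: 48 h minus 24 h was -1.36 on the log2 scale in control and -0.17 in IL-6 libraries. Each of the 3 differences lay above the 95th percentile of all 13507 genes tested at its time, which was 0.82, 0.75 and 0.82. Because the genes were chosen with these differences known, the percentiles give only a scale and are no test.

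**Figure D1:**
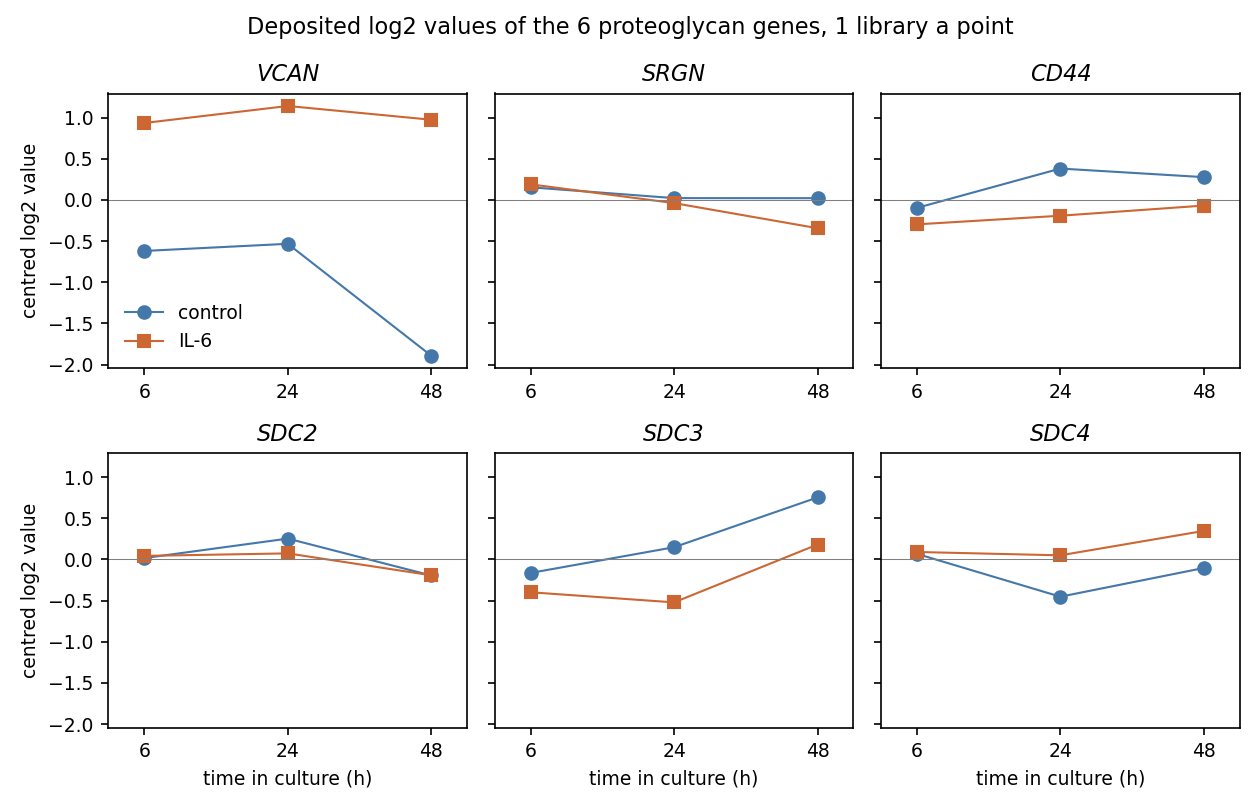
Centred log2 value of each of the 6 genes (y axis) against time in culture in hours (x axis), control libraries as circles and IL-6 libraries as squares, 1 library a point and so without error bars. VCAN lies between 0.93 and 1.14 with IL-6 and between -1.89 and -0.53 in control, whereas the 2 lines of every other gene lie within 0.67 log2 units of each other at each time.

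SRGN, the granule proteoglycan, on the plus strand of chromosome 10 (69088103 to 69104805), was nearly level between the agents at 6 and 24 h. The log2 values, in the same order of times, were 0.15, 0.02 and 0.02 in control and 0.19, -0.04 and -0.34 in IL-6 libraries. The 2 groups overlapped, and the IL-6 library of 48 h was the lowest of the 6. The differences were 0.04, -0.06 and -0.36, with a mean of -0.13 ± 0.21 (SD, 3 pairs) that was -0.012 without the 48 h pair. No level was recovered for SRGN, and like the other genes without one it was treated as high.

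CD44, the hyaluronan receptor, on the plus strand of chromosome 11 (35138882 to 35232402), was lower with IL-6 at each time. Control libraries had log2 values of -0.10, 0.38 and 0.28 and IL-6 libraries -0.30, -0.19 and -0.07, with levels of 46.3, 64.5 and 60.0 against 40.3, 43.4 and 47.2. The groups overlapped, since the control library of 6 h lay among the IL-6 libraries, while the control libraries of 24 and 48 h were the highest of the 6. The differences were -0.20, -0.57 and -0.35, a mean of -0.37 ± 0.19 (SD, 3 pairs) or 0.772-fold.

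Among the syndecans, SDC3, the form first described in nerve tissue, differed most. It lies on the minus strand of chromosome 1 (30869466 to 30908758). Its log2 value was -0.16, 0.15 and 0.75 in control and -0.40, -0.52 and 0.18 in IL-6 libraries. Both libraries of 48 h were higher than the others of their agent, and the IL-6 library of 48 h lay above the control libraries of 6 and 24 h, so the groups overlapped. IL-6 minus control was -0.24, -0.67 and -0.57, a mean of -0.49 ± 0.23 (SD, 3 pairs) or 0.711-fold.

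SDC4, a widely expressed syndecan of focal adhesions, on the minus strand of chromosome 20 (45325288 to 45348424), was higher with IL-6 at each time. The control libraries stood at log2 values of 0.07, -0.45 and -0.10, and the IL-6 libraries at 0.09, 0.05 and 0.35. At 6 h the agents were nearly equal, the control library of 24 h was the lowest of the 6 and the IL-6 library of 48 h the highest. The differences were 0.02, 0.50 and 0.45, a mean of 0.33 ± 0.26 (SD, 3 pairs) or 1.25-fold.

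SDC2, the syndecan also called fibroglycan, on the plus strand of chromosome 8 (96493813 to 96611790), showed the smallest mean difference of the 6 genes. Log2 values were 0.02, 0.25 and -0.19 in control and 0.04, 0.07 and -0.19 in IL-6 libraries. The agents were nearly equal at 6 and 48 h, and the control library of 24 h was the highest. IL-6 minus control was 0.03, -0.18 and 0.00, a mean of -0.05 ± 0.11 (SD, 3 pairs) that turned to 0.015 without the 24 h pair. SDC1, the remaining syndecan, was no member of the list. It had a mean level of 0.942, under the minimum of 1 for testing, with log2 values of 0.22, -0.16 and 0.39 in control and 1.34, 0.24 and -2.02 in IL-6 libraries.

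Counted together, 2 of the 6 genes were higher with IL-6 on the mean and 4 lower. The difference had the same sign at all 3 times for 4 genes, VCAN and SDC4 upward and CD44 and SDC3 downward, where 30.8% of all genes tested did so in either direction. The IL-6 and control ranges did not overlap for 1 gene, VCAN, and for 9.22% of all genes tested. Since the choice of the genes used this contrast, nothing is read from these counts.

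**Figure D2:**
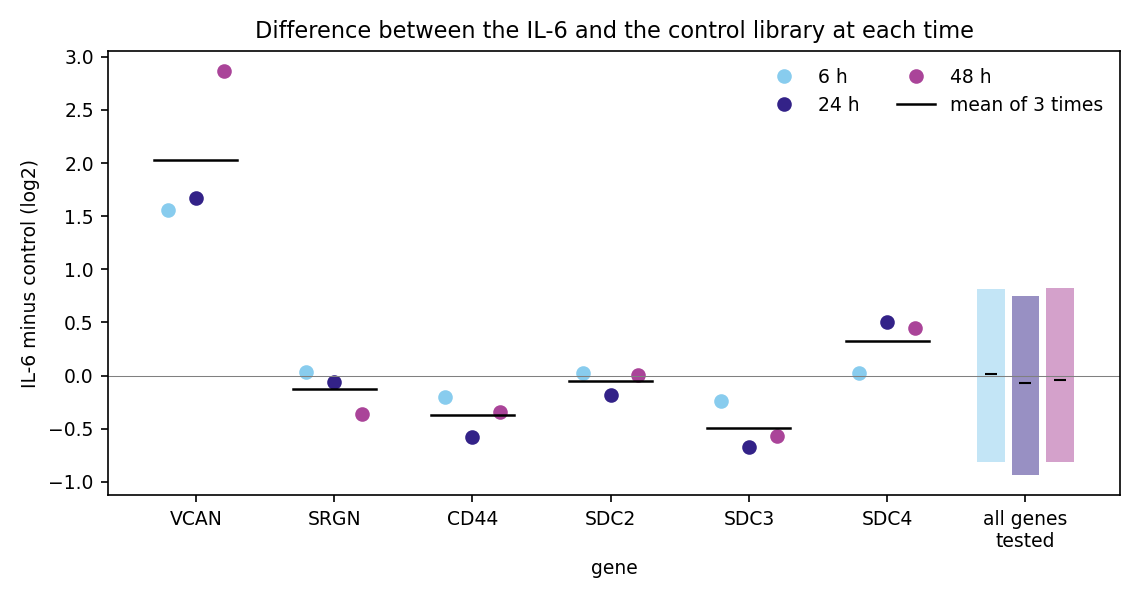
Log2 value of the IL-6 library minus that of the control library (y axis) for each gene, 1 point for each time, with the mean of the 3 times as a black line. The bars at the right span the 5th to 95th percentile of all 13507 genes tested at each time, with the median as a dash. The 3 points of VCAN lie above these bars and those of the other 5 genes within them. The genes were chosen with these differences known, so the bars give only a scale.

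The 6 genes varied to different degrees. The ratio of the highest to the lowest library was 8.19 for VCAN, 2.42 for SDC3, 1.74 for SDC4, 1.60 for CD44, 1.45 for SRGN and 1.36 for SDC2. Over the 6 libraries, CD44 and SDC3 had a Pearson correlation of 0.78 with each other and of -0.75 and -0.78 with VCAN. SDC4 had a correlation of 0.54 with VCAN and -0.75 with CD44. These are descriptions over 6 points that share libraries and agents.

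Among the 5 genes with a recovered level, SDC2 had the highest mean at 81.1 ± 9.68 (SD over the 6 libraries), followed by CD44 at 50.3 ± 9.69. Their ranges, 70.5 to 96.1 and 40.3 to 64.5, did not overlap. VCAN at 10.95 ± 7.13 and SDC4 at 9.12 ± 1.60 did not differ beyond their spread. SDC3 was lowest, at 4.79 ± 1.65. The ranges of SDC3 (3.19 to 7.73) and SDC4 (6.58 to 11.4) overlapped, but SDC4 lay above SDC3 in each of the 6 libraries. In control libraries VCAN (2.30 to 5.90) lay below SDC4 (6.58 to 9.43), and in IL-6 libraries (16.3 to 18.8) above it (9.32 to 11.4). The level of SDC2 is less certain, as it lies close to the upper end of the range that could be matched. Whether the authors divided by gene length was not stated. Over 9799 protein-coding genes with a recovered mean level of at least 1, level and annotated length had a Spearman correlation of -0.18. Genes without a recovered level were left out, and genes are no independent replicates. The order between genes therefore holds only on the deposited scale.

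**Figure D3:**
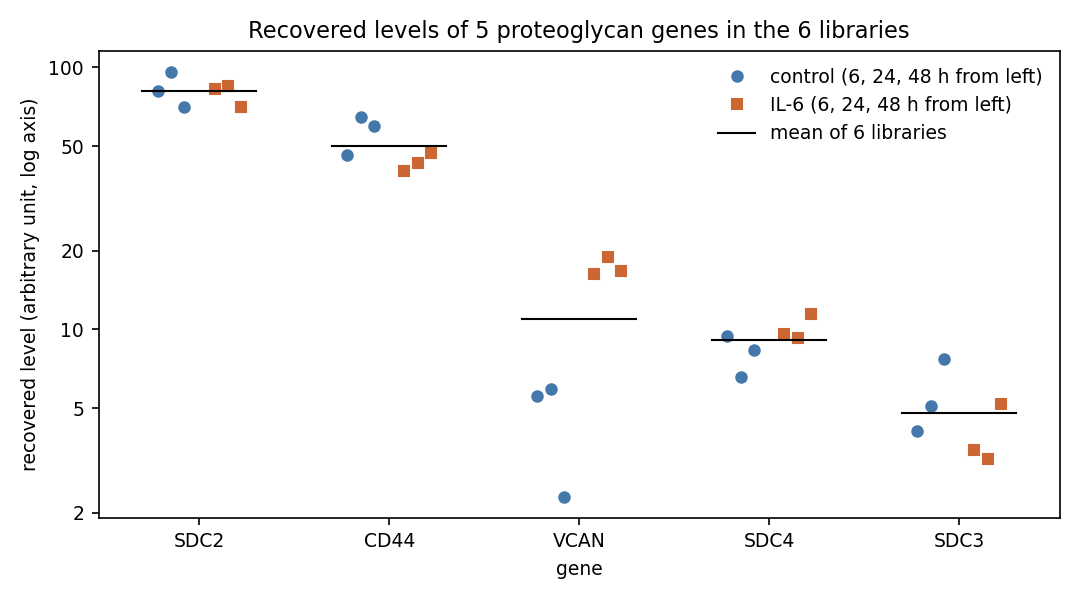
Recovered level in an arbitrary unit (y axis, log scale) of the 5 genes with one, in each control (circle) and IL-6 (square) library, ordered 6, 24 and 48 h from the left within each agent. The black line is the mean of 6 libraries. VCAN moves from below SDC4 in the control libraries to above it with IL-6, and SDC2 and CD44 lie above the others in all 6 libraries.

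Change over time in culture was tested with limma across all 13507 genes, with agent in the model. None of the 6 genes passed the adjusted threshold of 0.05 in any of the 3 contrasts. Over all genes tested, 1.96% passed for 24 h minus 6 h, 3.98% for 48 h minus 6 h and 0.518% for 48 h minus 24 h. In each of these contrasts 2 libraries stand against 2, with 2 residual degrees of freedom, so a change could be missed.

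The smallest adjusted p among the 6 was that of SDC3, which was higher at 48 h than at 6 h by 0.92 in control and 0.58 in IL-6 libraries. Its limma estimate was 0.75 ± 0.30 (SE), with an adjusted p of 0.186. SRGN was lower at 48 h than at 6 h, by an estimate of -0.33 ± 0.14 (adjusted p = 0.204 with limma), with -0.13 in control and -0.53 in IL-6 libraries. For VCAN the estimate of -0.62 ± 0.32 (adjusted p = 0.295 with limma) averaged -1.27 in control and 0.04 in IL-6 libraries. CD44 was higher at 48 h than at 6 h, by 0.30 ± 0.15 (adjusted p = 0.279 with limma), from 0.37 in control and 0.23 in IL-6 libraries. At 24 h it exceeded 6 h by 0.29 ± 0.15 (adjusted p = 0.352 with limma), from 0.48 in control and 0.10 in IL-6 libraries. SDC2 had an estimate of -0.36 ± 0.13 from 24 to 48 h (adjusted p = 0.330 with limma). That of SDC4 was -0.28 ± 0.24 from 6 to 24 h (adjusted p = 0.597 with limma) and 0.32 ± 0.24 from 24 to 48 h (adjusted p = 0.675 with limma). The direction from 6 to 48 h was thus the same in both agents for SRGN, CD44, SDC2 and SDC3. It was opposite in sign for SDC4 (-0.17 in control and 0.26 in IL-6 libraries). VCAN fell in control and was nearly level in IL-6 libraries.

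By likeness of pattern, the 5 genes closest to VCAN over the 6 libraries, among 4507 genes tested whose values span at least 1 log2 unit, were PMS2P5, SPTBN5, ENSG00000253154, S100A8 and GZF1. Their Pearson correlations with VCAN were 0.996, 0.992, 0.989, 0.985 and 0.978. S100A8 encodes a calcium-binding protein abundant in monocytes and neutrophils, and its IL-6 library exceeded the control by 1.21, 1.90 and 2.24 at 6, 24 and 48 h on the log2 scale. SPTBN5, a spectrin gene, exceeded it by 1.37, 1.42 and 2.88. As in VCAN, the difference was largest at 48 h in both, a likeness favoured by their choice for correlation with VCAN over the same values. PMS2P5 is a pseudogene with near-identical relatives, and its value is uncertain for that reason. With 6 points and 4507 genes searched, the correlations are given without a test.

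For the other genes the closest patterns were those of CCND1 (0.993), which encodes cyclin D1, and IGSF6 (0.989) and ENSG00000260360 (0.985) for SRGN. For CD44 they were BAIAP2-DT (0.994), DLX4 (0.992) and CALCOCO1 (0.987). UVRAG-DT (0.982), RHOQP1 (0.977) and EML2-AS1 (0.970) were closest to SDC2. SDC3 was most like ENSG00000273145 (0.985), MYOZ1 (0.981) and ATP2B3 (0.981). Among the genes most like SDC4 were GLRB (0.971) and IL7R (0.959), the interleukin-7 receptor gene, whose own log2 difference with IL-6 was far larger, at 0.67, 4.33 and 4.25.

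The rest of the proteoglycan pathway was followed through 165 genes in 10 lists. Of these, 108 had a value in all 6 libraries, 27 had none, and 94 were tested. None of the 94 passed for IL-6 minus control, where 0.267% of all genes tested did. At an unadjusted p under 0.05, limma had 12 of the 94, beside 1218 of all 13507. The median estimate of the 94 was -0.12, and of all genes tested -0.03. The IL-6 and control ranges did not overlap for 13 of the 94 (13.8%), 5 above and 8 below, beside 9.22% of all genes tested. Of these, the genes named below were NRP1, CHST11, CHST13, EXT1 and SGSH above, and B4GALT7, SLC35D1, HYAL3, CTSG and PRTN3 below.

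Of the other core proteins, 15 of 37 were tested and the median estimate for IL-6 was -0.17. NRP1, a co-receptor for VEGF and semaphorins that can carry a chain, had log2 values of -0.45, -0.48 and -0.15 in control and 0.19, 0.59 and 0.31 in IL-6 libraries, so the groups did not overlap. Its estimate was 0.72 ± 0.35 (adjusted p = 0.587 with limma). GPC1, a glypican, followed at 0.19. CSPG4, a membrane chondroitin sulphate proteoglycan, had the lowest estimate, -1.08 ± 0.37 (adjusted p = 0.399 with limma), with -0.96, 1.34 and 1.24 in control and -1.23, -0.07 and -0.33 in IL-6 libraries. HSPG2, perlecan, was next at -0.73. None of the 15 passed in a time contrast.

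The enzymes that build the chains gave estimates on both sides of 0. All 7 enzymes of the linkage sugars were tested, with a median of 0.01 and a range from -0.34 (XYLT2, a xylosyltransferase) to 0.34 (PXYLP1, a xylose phosphatase) and with B4GALT7 (-0.28) and XYLT1 (0.15) next to them. For chondroitin and dermatan sulphate, 11 of 16 were tested, with a median of 0.04. The 2 highest were the sulphotransferase genes CHST13 and CHST11. CHST13 had log2 values of -0.38, -0.34 and -0.20 in control and -0.16, 0.13 and 0.95 in IL-6 libraries, and CHST11 -0.33, -0.24 and -0.06 against 0.06, 0.16 and 0.40. In both genes the IL-6 libraries all lay above the control libraries. The estimates were 0.61 ± 0.20 (adjusted p = 0.360 with limma) and 0.42 ± 0.17 (adjusted p = 0.500 with limma), and neither passed. The lowest were the uronyl 2-sulphotransferase UST at -0.64 and CHST12 at -0.23.

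For heparan sulphate, 10 of 23 genes were tested, with a median of 0.00. EXT1, a subunit of the chain polymerase, had the highest estimate of all 94 genes, 1.45 ± 0.42 (adjusted p = 0.306 with limma). Its log2 value was -0.52, -0.31 and -1.35 in control and 0.05, 1.28 and 0.84 in IL-6 libraries, with no overlap and, as for VCAN, the lowest library in the 48 h control. SULF2, an extracellular sulphatase that trims the chains, followed at 0.49, and NDST1 and EXTL3 were lowest at -0.46 and -0.38.

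Of the 11 genes for sulphate donors and sugar nucleotides, all tested, the transporters SLC35D1 (-0.54) and SLC35D2 (-0.41) were lowest, and PAPSS1 (0.16) and BPNT2 (0.03) highest. Among 17 tested genes of glycosaminoglycan degradation the extremes were SGSH (0.77) and IDS (0.07) above and HYAL3 (-0.38) and HGSNAT (-0.31) below, and SGSH was higher with IL-6 by 0.27, 0.27 and 1.78 at the 3 times, largest at 48 h. Of 15 hyaluronan genes, CEMIP2 (-0.21) and HMMR (-0.08) were tested. MMP9, a gelatinase, was highest of 6 tested proteases at 0.83 ± 0.59 (adjusted p = 0.761 with limma), with a difference of 2.76 at 48 h beside -0.23 and -0.06 at 6 and 24 h, and ADAM17 (-0.14), MMP2 (-0.34) and MMP14 (-0.79) lay below 0.

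Of 9 tested partners of syndecans and CD44, PRKCA (0.09) and the syndecan-binding protein SDCBP (0.04) were highest and PDCD6IP (-0.29) and ESRP2 (-0.85, with an SE of 1.49) lowest. In the list of granule proteins bound by serglycin, 6 of 11 were tested, with a median of -0.28. CTSG, cathepsin G, had the lowest estimate, -0.50 ± 0.13 (adjusted p = 0.254 with limma), with 0.26, 0.21 and 0.28 in control and 0.09, -0.27 and -0.57 in IL-6 libraries, and no overlap. AZU1 was at -0.32, PRTN3 at -0.23 and ELANE at 0.05.

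**Figure D4:**
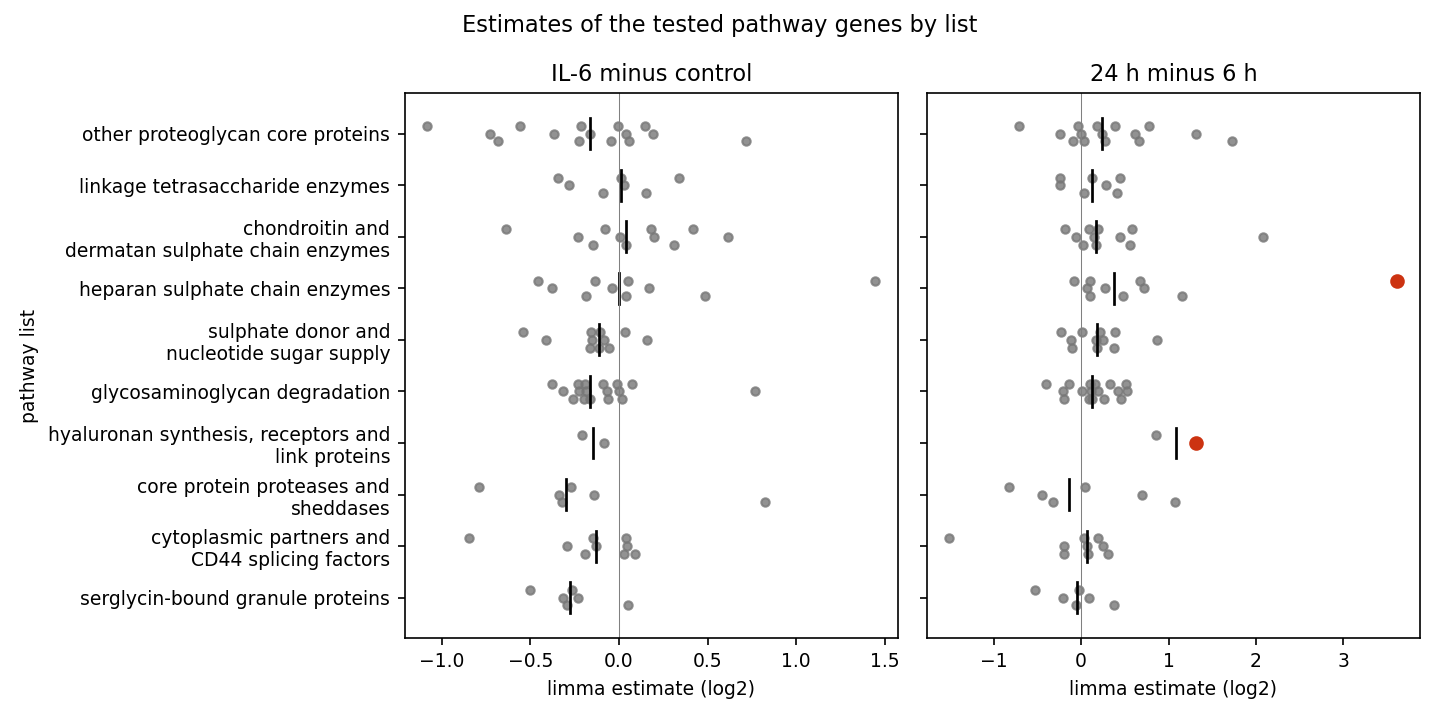
Limma estimate on the log2 scale (x axis) of each of the 94 tested genes in the 10 lists (y axis), for IL-6 minus control (left) and 24 h minus 6 h (right); black lines are the medians of the lists, and large red points passed an adjusted p of 0.05. No gene passed on the left, where EXT1 lies farthest out at 1.45, and SULF2 (3.62) and HMMR (1.31) passed on the right.

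With culture time, 3 of the 94 pathway genes passed in at least 1 contrast. These were 2 of 94 for 24 h minus 6 h (1.96% of all genes tested), 1 for 48 h minus 6 h (3.98%) and 2 for 48 h minus 24 h (0.518%), counts too small to set the lists apart from other genes. HMMR, a hyaluronan-binding protein of the mitotic spindle, rose from 6 to 24 h and fell again to 48 h in both agents. Its log2 value was -0.39, 0.87 and -0.35 in control and -0.55, 0.82 and -0.41 in IL-6 libraries. The estimates were 1.31 ± 0.14 for 24 h minus 6 h (adjusted p = 0.0026 with limma) and -1.22 ± 0.14 for 48 h minus 24 h (adjusted p = 0.010 with limma), higher and lower in 2 of 2 agents.

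SULF2 rose from 6 to 24 h, by 3.62 ± 0.62 (adjusted p = 0.0396 with limma). Its log2 value was -1.96, 2.42 and -1.19 in control and -1.42, 1.43 and 0.71 in IL-6 libraries, and the 24 h library was the highest of both agents. LYZ, which encodes lysozyme, fell from 6 to 48 h by 1.78 on the log2 scale (SE 0.14, adjusted p = 0.000462 with limma), and from 24 to 48 h by 1.25 (adjusted p = 0.010 with limma). Its log2 value was 0.84, 0.31 and -0.75 in control and 0.70, 0.18 and -1.27 in IL-6 libraries, lower at each later time. In each of the 3 contrasts the other pathway genes tested did not pass. Without a trend of variance on level in the limma fit, no gene of any kind passed, and the calls for HMMR, SULF2 and LYZ were lost with the rest.

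Reads of overlapping genes bear on 2 of the members, because the library kits do not mark the strand. VCAN-AS1, an antisense RNA inside VCAN (chromosome 5, 83531352 to 83581320, minus strand), had a value in 2 libraries, those of IL-6 at 6 h (-0.17) and 48 h (0.17). CD44-AS1, inside CD44, had a value in 2 libraries, the controls of 6 h (0.94) and 48 h (-0.94). ENSG00000255521, which overlaps the start of CD44 on the opposite strand, also had 2, in the controls of 24 h (-1.17) and 48 h (1.17). With 2 values each, these centred values say nothing of their level beside that of the sense gene. The pseudogenes SDC4P and SRGNP1 had no value in any library.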

How the data were processed

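Per the labels' protocols, cDNA was made with the SMART-seq v4 low-input kit, libraries with Nextera XT, and reads on an Illumina NovaSeq; neither kit marks strand. Per the submitters' processing notes the build was GRCh38 (hg38). For the aligner, counter, annotation release and normalization, nothing was stated (not given in the sources used here). The deposited unit is a log2 value per gene, a processed signal per the file headers, centred on each gene by the authors to within 1.8e-07. No missing log2 value was filled in for the fits.

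Levels were recovered by matching each gene's 6 values to whole multiples of 0.001 after 1 offset per library (relative tolerance 2e-06 up to 5000 steps, 6e-07 above). This gave 15623 genes, plus 111 with a library at the floor of 0.00998, together 90.5% of the 17388 with 6 values; the other 1654 were treated as a level of 100, though some may be low. Limma 3.58.1 (R 4.3.3; time and agent as terms, robust, variance trend on level, Benjamini-Hochberg over all 13507 genes that had 6 values and reached a mean level of 1, threshold 0.05) was tested on simulated data first. The median prior degrees of freedom were 8.1, beside 2 residual ones. The design foresaw counts as a possibility; none are deposited, so no count model was used.

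The 6 genes, the 10 pathway lists and the marker lists were chosen with earlier results of these data known. Named pathway genes are those past the threshold for IL-6, the 2 highest and 2 lowest IL-6 estimates of each list (1 and 1 under 6 tested genes), and up to 3 genes past the threshold per time contrast. Alternatives were equal library medians, log2(level + 1), no variance trend, no robust fit, no level filter, a mean level of at least 10, and leaving out a time pair or an agent. A marker gene and a gene similar in pattern to SDC4 are not reported here.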

Additional observations from a re-analysis of the deposited data

Results flagged for a closer look

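In several of the 6 genes the change had opposite signs in groups that were set side by side; with 1 library for each condition the difference could not be tested, and no cause was tested. For VCAN, 48 h minus 6 h was -1.27 in control and 0.04 in IL-6 libraries, a gap of 1.31 on the log2 scale. For SDC3, 24 h minus 6 h was 0.31 and -0.12, a gap of -0.43. For SDC4, 48 h minus 6 h was -0.17 and 0.26, a gap of 0.43. For CD44, 48 h minus 24 h was -0.10 and 0.12, a gap of 0.23. The IL-6 difference of SRGN over the 3 times was 0.04, -0.06 and -0.36, so the later ones stood at -0.10 and -0.40 from the first. That of SDC2 was 0.03, -0.18 and 0.00, a step of -0.21 and then of 0.18. VCAN-AS1, which no comparison used, had a value in 2 libraries, 2 of the 3 IL-6 libraries and 0 of the 3 controls.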

How the results depend on the processing

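With equal library medians, and with log2(level + 1) where a level was recovered, the mean IL-6 difference moved by less than the SD over the pairs. Equal medians shift every gene alike. Leaving out 1 of 3 pairs moves their mean by less than their SD whatever the values, so no stability is read from that. The sign of the mean difference held for VCAN, SRGN, CD44, SDC3 and SDC4. That of SDC2 (-0.05) turned to 0.015 without the 24 h pair. Leaving out 1 time pair gave 1.61 to 2.27 for VCAN, and SRGN was at -0.012 without the 48 h pair. None of the 6 genes passed for culture time under any alternative, with adjusted p from 0.13 to 0.997 by limma. With equal library medians the estimate of SDC3 for 24 h minus 6 h reversed to -0.005, and that of SDC4 for 48 h minus 6 h to -0.021. No pathway gene passed for IL-6 under any alternative.

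Counts of calls over all genes depended on the fit, and the cause was not tested. They were 36 for IL-6 minus control, 265 for 24 h minus 6 h, 538 for 48 h minus 6 h and 70 for 48 h minus 24 h. Without a variance trend all 4 were 0. In the same order they were 13, 150, 285 and 10 without a robust fit and 15, 147, 288 and 10 without a level filter. At a mean level of at least 10 the last was 117. Leaving out 1 pair gave between 17 (without 24 h) and 120 (without 6 h) calls for IL-6.

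Of the pathway genes, 2 passed upward for 24 h minus 6 h, and downward 1 for 48 h minus 6 h and 2 for 48 h minus 24 h; without a variance trend these counts were 0, 0 and 0. At a mean level of at least 10, CHST12, GLB1 and ADAM10 made 3 upward calls for 48 h minus 6 h, where the main count was 0. With log2(level + 1), which needs a recovered level, LYZ could not be fitted, which left 0 downward calls for 48 h minus 6 h and 1 for 48 h minus 24 h. Depth is unknown, and 1 library for each condition limits every value above.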
